A study of Mus musculus with 12 samples.

Results

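The 42 genes described here encode collagens and other proteins of the connective tissue matrix, with the enzymes and inhibitors that crosslink or remodel it. They were taken by symbol from a list of such genes, and all 42 were found among the 53392 gene rows of the tables. They comprise 6 fibrillar collagen chains, 5 chains of collagen VI, XII and XIV, 7 basement membrane chains, 6 adhesive and matricellular glycoproteins, 6 elastic fibre genes, 4 small leucine-rich proteoglycans, 3 lysyl oxidases and 5 matrix proteases and inhibitors. RNA was sequenced from the developing upper face of mouse embryos of strain 129S4 in 4 groups of 3 biological replicates. Palatal shelves at embryonic stage E13.5 came from wild-type embryos (Pdgfra+/+) and from embryos homozygous for the Pdgfra PI3K allele (PdgfraPI3K/PI3K), a knock-in at the locus of the receptor tyrosine kinase PDGFRα. Maxillary processes, the swellings from which the palatal shelves later grow, were taken at E11.5 from Srsf3fl/fl;Wnt1-Cre+/+ embryos (control) and Srsf3fl/fl;Wnt1-Cre+/Tg embryos (cKO). Control and cKO embryos thus share 2 floxed alleles of Srsf3, which encodes a splicing factor of the SR family, and differ in the Wnt1-Cre transgene. Wnt1-Cre acts in the neural crest, so endothelium, blood and other cells of different origin keep the floxed gene. Per the labels' protocols ectoderm was removed with trypsin and polyadenylated RNA was selected. Whether each library came from 1 embryo is not stated in the sources used here.

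Connective tissue matrix is secreted chiefly by mesenchymal cells. Fibrillar collagens form the tensile fibrils, and collagens XII and XIV and the small leucine-rich proteoglycans lie on the fibril surface. Collagen VI forms a beaded microfibril around cells, and collagen IV, laminins and nidogens build the basement membrane under epithelia and around vessels. Elastin is laid on fibrillin microfibrils with the help of fibulins, and lysyl oxidases crosslink collagen and elastin. In the face, neural crest mesenchyme is the main source of this matrix, which fills the palatal shelves as they grow and is later replaced in part by bone.

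Palatal shelf libraries held 30509338 to 37406960 estimated counts and maxillary libraries 15932541 to 27887654. No 2 libraries of a group agreed within sampling noise (chi-square per degree of freedom 11.8 to 65.3). All 10 facial mesenchyme markers were above 0 TPM in every group, and their sum was 1819 to 2427 TPM in the palatal shelf libraries, 2101 to 2459 TPM in the control maxillary libraries and 1023 to 1810 TPM in the cKO libraries. TPM is a share of transcripts, scaled for their length and for depth. The labels name mesenchyme, yet the sum of 13 ectoderm and epithelium markers was 433 to 1164 TPM in the palatal shelf, against 3.71 to 17.9 TPM in the maxillary process. Wild-type palatal shelf library 1 stood apart in its sum of 12 cartilage and bone markers, with 1593 TPM against 306 and 454 TPM in libraries 2 and 3, and PI3K library 1 had 882 TPM against 418 and 320 TPM. Of the endothelial and mural markers, the summed level was 205 to 211 TPM in control maxillary libraries, 487 TPM in cKO library 1 and 292 and 267 TPM in cKO libraries 2 and 3. Total Srsf3 was not reduced in the libraries labelled cKO: control libraries had 597, 578 and 547 CPM (counts scaled for depth) and cKO libraries 468, 669 and 622 CPM (log2 fold change 0.03, edgeR adjusted p = 0.954). The tables hold gene totals, so the floxed exons could not be examined apart, and these libraries are called labelled Srsf3 cKO throughout. Pdgfra, the gene that carries the PI3K allele, had means of 491 ± 18.6 and 498 ± 57.0 CPM in the wild-type and PI3K groups (SD, n = 3), and the allele itself cannot be seen in gene totals.

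The 100 bases before the annotated start of RefSeq transcripts (GRCm38.p6) were available for 25 of the 42 members, and in 11 of these windows an annotated exon overlapped. The windows below are shown because they belong to members that differed by different amounts between palatal shelf and maxillary process: Fmod, Postn and Tnc were among the 8 with the largest fold change, Bgn and Col5a1 were above the median of the members, and Timp1 did not pass the test. They were picked after the values had been seen. Capitals mark TATAAA, the core of the TATA box, or GGGCGG, the core of the GC box, on either strand (CCGCCC is GGGCGG on the opposite strand).
Fmod, chr1:134037154-134037253, plus strand: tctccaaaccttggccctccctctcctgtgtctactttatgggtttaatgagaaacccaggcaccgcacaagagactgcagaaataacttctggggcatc
Postn, chr3:54361007-54361106, plus strand: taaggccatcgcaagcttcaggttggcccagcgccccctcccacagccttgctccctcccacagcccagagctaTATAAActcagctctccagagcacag
Tnc, chr4:64047016-64047115, minus strand: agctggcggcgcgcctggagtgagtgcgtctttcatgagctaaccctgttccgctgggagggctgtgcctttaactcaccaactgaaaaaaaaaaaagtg
Bgn, chrX:73483501-73483600, plus strand: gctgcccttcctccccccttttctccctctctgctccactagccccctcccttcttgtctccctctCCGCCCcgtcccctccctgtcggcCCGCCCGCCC
Timp1, chrX:20870066-20870165, plus strand: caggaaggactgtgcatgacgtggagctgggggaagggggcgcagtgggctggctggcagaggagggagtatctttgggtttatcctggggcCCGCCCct
Col5a1, chr2:27886325-27886424, plus strand: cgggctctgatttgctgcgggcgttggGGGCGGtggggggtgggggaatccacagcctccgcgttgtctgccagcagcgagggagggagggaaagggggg

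TATAAA was found in 1 of the 25 member windows, that of Postn, where it began 26 bases before the start, and in 5.56% of all 32851 windows searched. GGGCGG was found in 12 of the 25 member windows (48%) and in 24.7% of all windows, and CCAAT in 3 of 25 (12%) and in 18.9% of all windows. Each member had 1 window, the one nearest its annotated gene start, which for Sparc was 3103 bases away. The share over all windows took every window, chromosome 18 included, so these shares are of unlike sets. A match is a description of the letters. Among the 13 members without GGGCGG the median log2 fold change of palatal shelf against maxillary process was 1.91, with a range from -0.19 to 6.0, and among the 12 members with it the median was 1.11, with a range from 0.55 to 2.68. These ranges overlapped, and this split was made after the fold changes had been seen, with no test. The 6 windows shown do not stand for all 25. Among those not shown, Fbln1 (-0.19) and Col1a2 (1.08) lack GGGCGG, and Fbln5 (2.52) has it.

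The matrix genes were abundant in the palatal shelf. Summed over the 42 members, wild-type palatal shelf libraries held 13794, 9462 and 11357 TPM (1.38%, 0.946% and 1.14% of all TPM) and PI3K libraries 12518, 10200 and 9167 TPM. Control maxillary libraries held 2523, 3104 and 4787 TPM and labelled Srsf3 cKO libraries 3670, 2655 and 3180 TPM. Every palatal shelf library was thus above every maxillary library, and within each tissue the genotypes overlapped. Control maxillary library 3 was the highest of the maxillary libraries.

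The 5 members of highest mean TPM over the 12 libraries were Col3a1 (1098 TPM), Col1a2 (825 TPM), Col1a1 (667 TPM), Postn (648 TPM) and Sparc (342 TPM). Col3a1, which encodes the chain of collagen III, had 1753, 1751 and 1755 TPM in wild-type palatal shelves, 1717, 1490 and 1422 TPM in PI3K palatal shelves, 356, 441 and 685 TPM in control maxillary processes and 804, 484 and 518 TPM in labelled Srsf3 cKO maxillary processes. The wild-type palatal shelf libraries were nearly identical in this gene, and no palatal shelf library overlapped a maxillary one.

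Col1a1 and Col1a2 encode the α1 and α2 chains of collagen I. Col1a1 had 2163, 706 and 1101 TPM in wild-type and 1633, 937 and 725 TPM in PI3K palatal shelves, against 69.6, 124 and 303 TPM in control and 68.7, 54.9 and 116 TPM in labelled Srsf3 cKO maxillary processes. Col1a2 had 1693, 924 and 1145 TPM in wild-type and 1413, 1074 and 1060 TPM in PI3K palatal shelves, against 372, 515 and 739 TPM in control and 274, 291 and 403 TPM in labelled Srsf3 cKO maxillary processes. Both chains were highest in library 1 of each palatal shelf group, the library with the highest sum of cartilage and bone markers in its group. That sum holds Ibsp, a bone sialoprotein gene, at 893, 0.0254 and 42.9 TPM in wild-type libraries 1 to 3. Its part in the collagen I levels was not tested.

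Postn encodes periostin, a matricellular protein of periosteum, periodontal ligament and developing mesenchyme. It had 1358, 1115 and 1335 TPM in wild-type and 1198, 1239 and 1072 TPM in PI3K palatal shelves, against 46.2, 87.1 and 155 TPM in control and 52.3, 44.1 and 75.8 TPM in labelled Srsf3 cKO maxillary processes. Sparc encodes osteonectin, a collagen-binding glycoprotein, and had 814, 375 and 507 TPM, 714, 411 and 411 TPM, 95.2, 134 and 239 TPM, and 164, 111 and 125 TPM in the same order of groups. For both genes the palatal shelf libraries lay above all maxillary libraries, and the genotypes of a tissue overlapped.

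**Figure D1:**
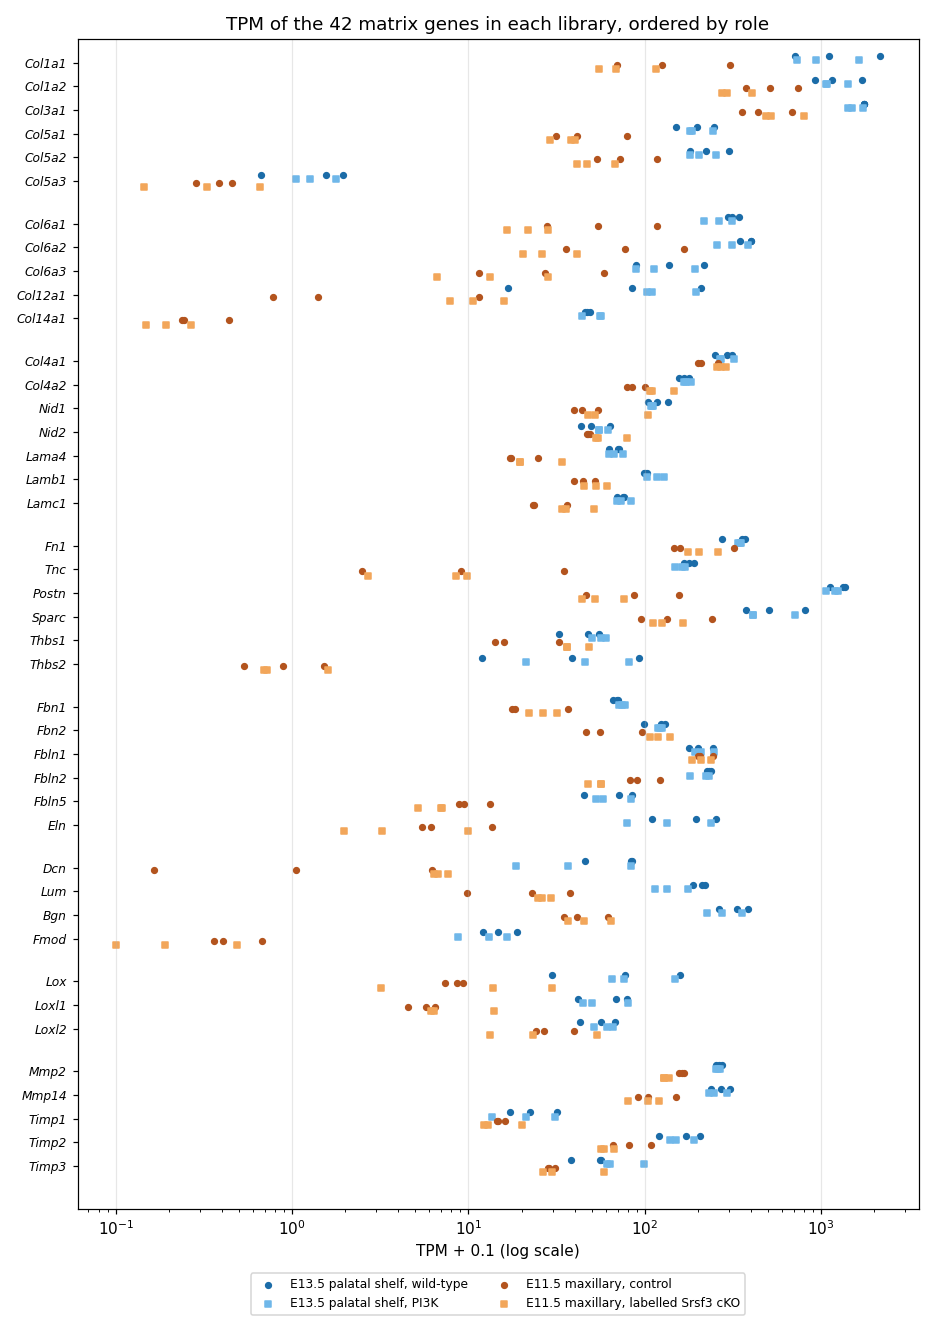
TPM + 0.1 on a log axis for each of the 42 members (rows, grouped by role) in each of the 12 libraries. Points of the palatal shelf groups (blue) lie to the right of those of the maxillary groups (orange) for most members, and Fbln1, Nid2 and Col4a1 are among those where the groups mix or nearly meet. Col14a1 and Fmod are near 0 in every maxillary library.

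At the other end of the range, Col5a3 had a mean of 0.775 TPM over the 12 libraries, against 342 TPM or more for the 5 genes above. Fbln1, which encodes the elastic fibre and basement membrane protein fibulin-1, was at a like level in all groups: 178, 244 and 200 TPM in wild-type palatal shelf, 193, 245 and 208 TPM in PI3K palatal shelf, 206, 201 and 245 TPM in control and 237, 185 and 209 TPM in labelled Srsf3 cKO maxillary process. All 4 groups overlapped in this gene.

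Fibrillar collagen chains summed to 4763 ± 1258 TPM in wild-type and 4238 ± 898 TPM in PI3K palatal shelves, against 1334 ± 534 TPM in control and 1093 ± 179 TPM in labelled Srsf3 cKO maxillary processes (SD, n = 3 each). Small leucine-rich proteoglycans summed to 619 ± 76.0 and 486 ± 134 TPM in the palatal shelf groups and to 72.1 ± 31.1 and 82.3 ± 15.0 TPM in the maxillary groups. Basement membrane members were closer: 810, 858 and 921 TPM in wild-type and 855, 955 and 849 TPM in PI3K palatal shelves, 446, 471 and 575 TPM in control and 745, 562 and 612 TPM in labelled Srsf3 cKO maxillary processes. In bulk libraries more cells of a type and more RNA per cell cannot be told apart.

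**Figure D2:**
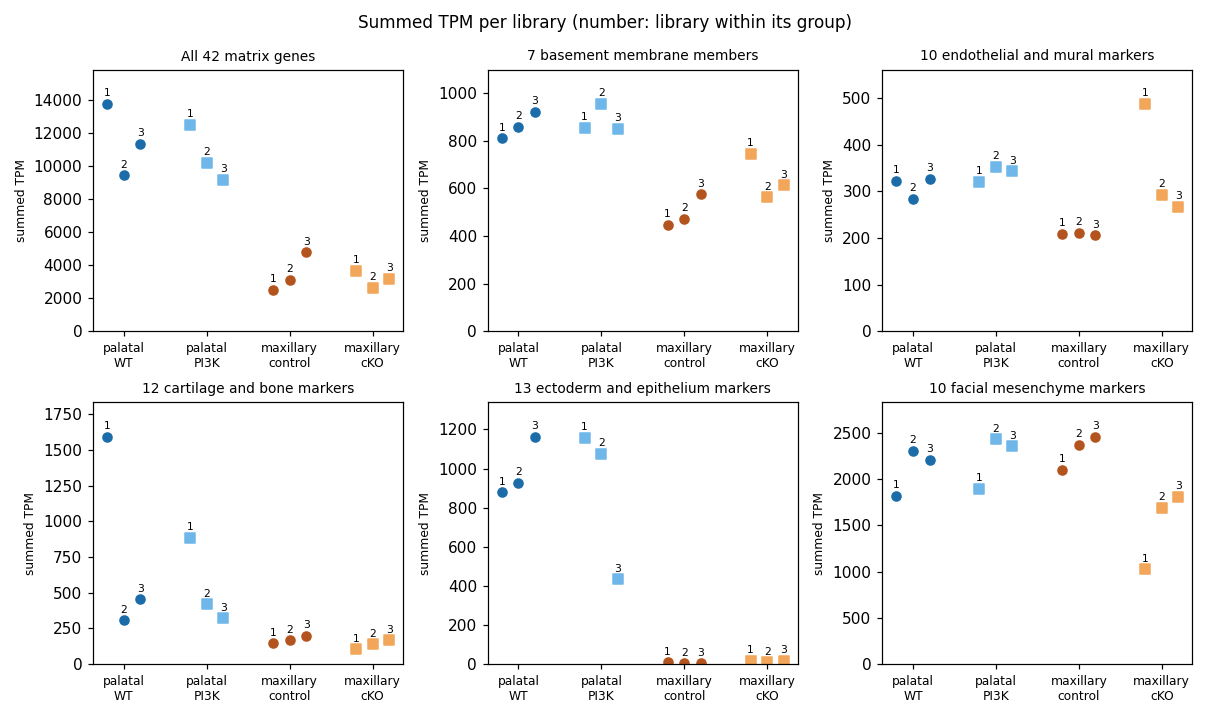
Summed TPM per library for the 42 members, the 7 basement membrane members and 4 lists of cell type markers, with the library number above each point. The members' sum is 9167 to 13794 TPM in palatal shelf and 2523 to 4787 TPM in maxillary libraries, and labelled Srsf3 cKO library 1 is highest of the maxillary libraries in the basement membrane and endothelial panels.

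The first comparison set wild-type palatal shelves at E13.5 against control maxillary processes at E11.5. Both groups also serve as controls in the comparisons that follow. They differ in tissue, stage, the Srsf3 locus and the deposited table, which cannot be told apart. Most matrix genes were higher in the palatal shelf: 38 of the 42 members passed an adjusted p of 0.05 (edgeR's quasi-likelihood test, Benjamini-Hochberg adjustment over 15752 genes), all 38 in the palatal shelf direction. Over all genes tested 50.6% passed, 27.1% higher and 23.4% lower in the palatal shelf. In 37 members all palatal shelf libraries lay above all control maxillary libraries, which was so for 33.2% of all genes. The median log2 fold change of the members was 1.63, against 0.03 for all genes.

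Collagen XIV, a fibril-associated collagen of tendon and dermis, differed most. Col14a1 (ENSMUSG00000022371.16, chr15:55307750-55520803 in GRCm38) had 127, 120 and 120 CPM in palatal shelves and 0.396, 0.545 and 0.923 CPM in control maxillary processes. The palatal shelf libraries were close to one another and far above the maxillary ones (log2 fold change 7.55, SE 0.20, adjusted p = 4.25e-06). Fmod, which encodes the fibril-binding proteoglycan fibromodulin, had 32, 20.1 and 24.3 CPM against 0.594, 0.121 and 0.461 CPM, again without overlap (6.0, SE 0.38, adjusted p = 5.88e-05). Both genes were under 1 CPM in every control maxillary library. Like Dcn below, they passed the filter on low counts only through the palatal shelf libraries, where they are high. The filter thus favoured a difference in this direction for these 3 of the 38 members. Their calls are not independent of it.

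Thbs2, which encodes the matricellular protein thrombospondin-2, had 308, 38.4 and 125 CPM in palatal shelves and 1.65, 2.97 and 4.89 CPM in control maxillary processes (5.58, SE 0.83, adjusted p = 0.00157). The palatal shelf libraries varied widely, library 1 being the highest and library 2 the lowest, but none overlapped the maxillary libraries. Col12a1, which encodes another fibril-associated collagen, showed the same order of libraries with 846, 71.7 and 363 CPM against 4.29, 6.85 and 52.5 CPM (4.30, SE 1.16, adjusted p = 0.0176). For Col12a1 palatal shelf library 2 was only a little above control maxillary library 3, and the adjusted p was 0.0506 without palatal shelf library 1 and 0.0681 without control maxillary library 2.

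The remaining fibril-associated genes were the small leucine-rich proteoglycans, of which 4 of 4 were higher in the palatal shelf. Dcn, the decorin gene, had 76.9, 41.2 and 75.3 CPM against 0.0660, 0.970 and 5.68 CPM (4.73, SE 0.80, adjusted p = 0.00261). The groups did not overlap, and control maxillary library 3 was the highest of its group. The log2 fold changes of Lum, the lumican gene, and Bgn, the biglycan gene, were 3.0 (SE 0.39) and 2.68 (SE 0.22).

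All 6 fibrillar chains were higher, with a median log2 fold change of 1.72. Col1a1 had the largest difference of them (2.88, SE 0.59, adjusted p = 0.00567) and Col1a2 the smallest (1.08, SE 0.29, adjusted p = 0.0165), although both chains belong to the same heterotrimer. Col3a1 differed by 1.60 (SE 0.18, adjusted p = 0.00057), and Col5a1, Col5a2 and Col5a3, the chains of collagen V that joins collagen I fibrils, by 1.84, 1.39 and 2.05. The call on Col1a2 was lost without control maxillary library 2 (adjusted p = 0.0644). The 3 chains of collagen VI differed by similar amounts, 2.13 for Col6a1, 1.91 for Col6a2 and 2.05 for Col6a3, and Col6a3 lost its call without the same library (adjusted p = 0.0646).

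Of the elastic fibre genes 5 of 6 were higher in the palatal shelf. Eln, the elastin gene (chr5:134702593-134747323 in GRCm38), had 519, 223 and 393 CPM in palatal shelves and 13.1, 14.4 and 29.4 CPM in control maxillary processes. The groups did not overlap and were far apart (4.30, SE 0.43, adjusted p = 0.000333). Fbln5, whose product fibulin-5 links elastin to microfibrils, differed by 2.52 (SE 0.25). The fibrillin genes differed less, Fbn1 by 1.41 (SE 0.23) and Fbn2 by 0.69 (SE 0.24, adjusted p = 0.0451). Fbn2, like Thbs1, had overlapping groups in CPM and lost its call when any of 4 of the 6 libraries was left out. Fbln2 differed by 1.1 (SE 0.13), while Fbln1 had 242, 325.5 and 260.5 CPM against 309, 297 and 337 CPM (-0.19, SE 0.13, adjusted p = 0.251).

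The 3 lysyl oxidase genes were all higher, Loxl1 by 3.37 (SE 0.28), Lox by 3.22 (SE 0.56) and Loxl2 by 0.87 (SE 0.19). Among the glycoproteins 5 of 6 passed. Postn had 2199, 1771 and 2099 CPM against 86.2, 164 and 260 CPM (3.57, SE 0.38, adjusted p = 0.000432). Tnc, which encodes tenascin-C, an anti-adhesive glycoprotein of growing mesenchyme, had 670, 748 and 692 CPM against 10.95, 40.7 and 143 CPM (3.43, SE 0.78, adjusted p = 0.00881). In both genes the palatal shelf libraries were tight, while control maxillary libraries spread from library 1, the lowest, to library 3, the highest. Sparc differed by 1.86 (SE 0.37) and Thbs1, the gene of thrombospondin-1, by 0.97 (SE 0.30). Fn1, the fibronectin gene, had 1637, 1166 and 1526 CPM against 690, 761 and 1428 CPM. These groups overlapped because control maxillary library 3 was within the palatal shelf range (0.59, SE 0.28, adjusted p = 0.12), and without that library the value was 0.97 with an adjusted p of 0.00313.

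Basement membrane genes differed least of the collagen-containing groups. Lama4, the laminin α4 chain of vessels and mesenchyme, differed by 1.65 (SE 0.12), Lamc1 by 1.26 (SE 0.14), Nid1, the nidogen-1 gene, by 1.13 (SE 0.10) and Lamb1 by 1.02 (SE 0.10). The collagen IV chains differed by 0.58 for Col4a1 (SE 0.12) and 0.77 for Col4a2 (SE 0.10), and Col4a1 did not pass with limma on log2(TPM + 1), where its value was 0.35 (adjusted p = 0.0563). Nid2, the nidogen-2 gene, had 169, 114 and 127 CPM against 143, 138 and 130 CPM and overlapped fully (-0.01, SE 0.14, adjusted p = 0.971). Its sign turned with the scaling, to 0.05 with upper quartile normalisation and 0.11 with limma on log2(TPM + 1).

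Of the remodelling genes 4 of 5 were higher, with a median of 0.62. Mmp14, the membrane-bound collagenase, differed by 1.11 (SE 0.17), Timp2, an inhibitor of metalloproteinases that also takes part in activating the gelatinase MMP2, by 1.04 (SE 0.19), Timp3 by 0.62 (SE 0.15) and Mmp2 by 0.54 (SE 0.09). Timp1 had 12.7, 6.71 and 8.55 CPM against 6.33, 6.36 and 6.32 CPM (0.55, SE 0.25, adjusted p = 0.0959). All 3 palatal shelf libraries were above the control maxillary ones, but library 2 only narrowly.

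Some values rested on 1 library. Without control maxillary library 3 the log2 fold changes were 6.88 for Dcn, 6.23 for Col12a1, 4.74 for Tnc, 3.55 for Col1a1 and 2.72, 2.54 and 2.73 for Col6a1, Col6a2 and Col6a3. Without palatal shelf library 1 they were 4.66 for Thbs2, 3.33 for Col12a1 and 2.49 for Lox. The number of members called ranged from 33, without control maxillary library 2, to 39, without palatal shelf library 2 or control maxillary library 3. Ectoderm markers moved with this comparison (all 13 higher, summed 878 to 1164 TPM against 3.71 to 8.59 TPM). Cartilage and bone markers did as well, at 306 to 1593 TPM against 145 to 200 TPM. Of these 12 markers 8 were tested and 4 passed, all higher, and 3 of the 12 were at 0 in the control maxillary libraries. Endothelial and mural markers summed to 284 to 326 TPM against 205 to 211 TPM (7 of 10 passed, all higher). Macrophage markers summed to 45.6 to 110 TPM against 22.2 to 25.8 TPM (8 of 10). Tendon and fibroblast markers summed to 182 to 190 TPM against 94.2 to 110 TPM (4 of 9). Other lists did not move this way. Of 10 facial mesenchyme markers 5 passed as higher and 4 as lower. Among 7 neuron and glia markers tested 1 passed as higher and 4 as lower, and among 8 red blood cell markers 2 and 4. The part of any of these markers in the matrix genes was not tested.

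**Figure D3:**
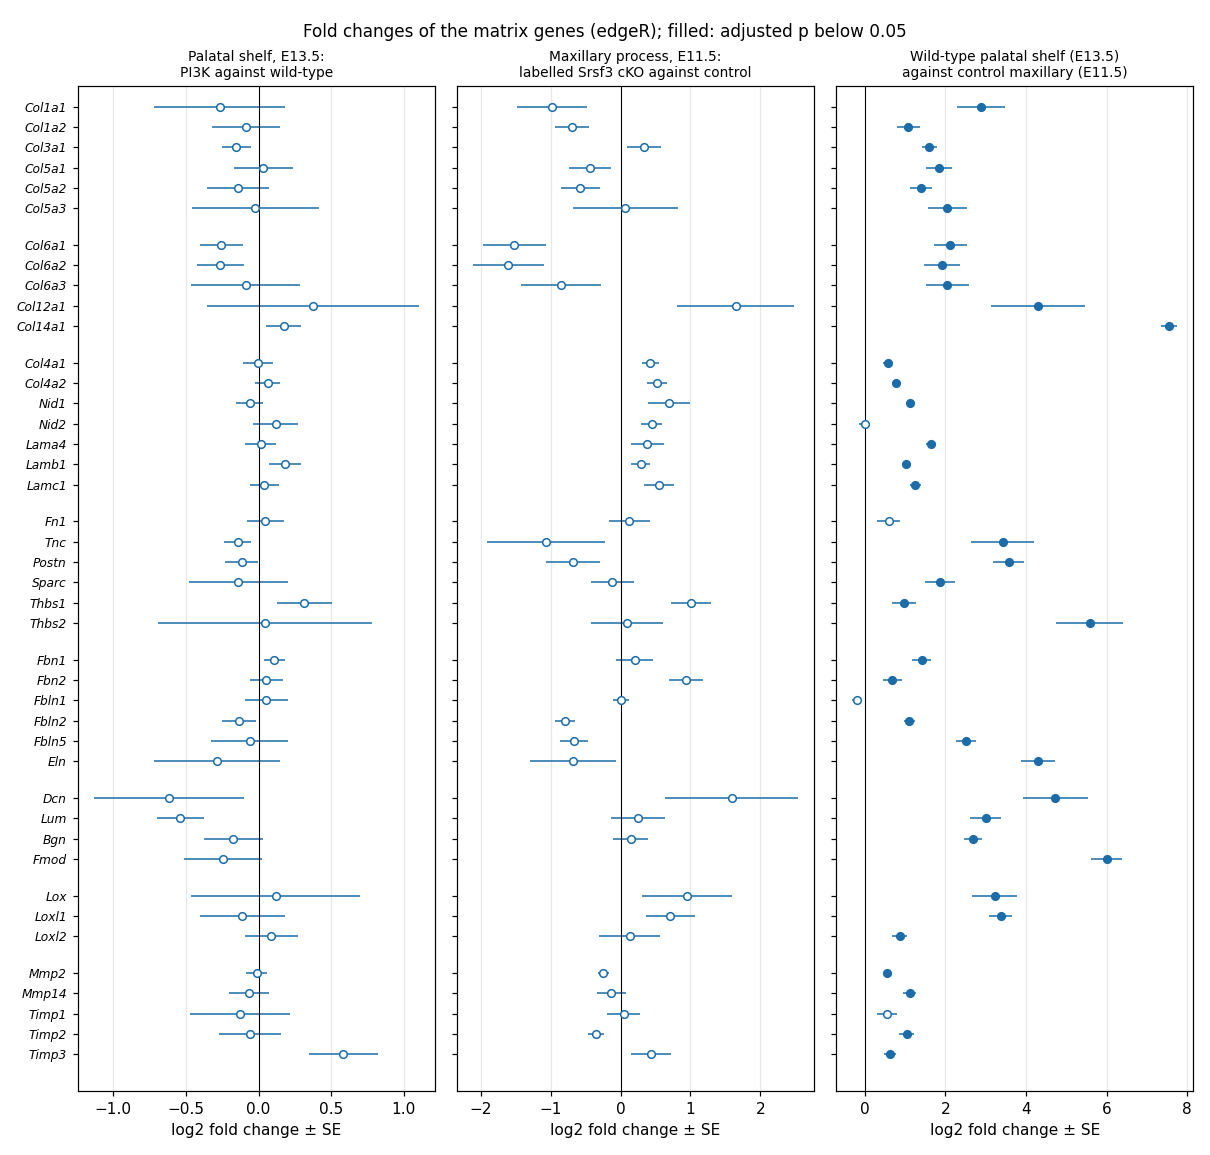
Log2 fold change (edgeR) with its standard error for each member in the 3 comparisons, each panel with its own axis, filled points passing an adjusted p of 0.05. In the right panel 38 of 42 points are filled and lie above 0, and in the left and middle panels none is filled. Col14a1 and Fmod have no point in the middle panel because they did not pass the filter on low counts.

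The related gene lists, 6 in number and apart from the members, were read in the same fit, and 111 of 168 genes tested passed as higher and 8 as lower in the palatal shelf, against 27.1% and 23.4% of all genes. Of the 168 genes, 19 passed the filter on low counts only through the palatal shelf libraries. In this and the next 3 paragraphs the counts of each list are of genes past an adjusted p of 0.05. Of the genes that make and fold collagen, 21 of 27 passed as higher and 0 as lower (median 0.99). Creb3l1, a transcription factor for collagen secretion in osteoblasts, had 141, 22.4 and 58.2 CPM against 1.45, 1.88 and 4.29 CPM (4.81, SE 0.75, adjusted p = 0.00193, and 3.96 without palatal shelf library 1), and Adamts2 and Adamts14, which remove the amino-terminal propeptide of fibrillar procollagens, differed by 3.90 and 3.32. All 3 had higher values in every palatal shelf library than in any control maxillary library.

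Of other collagens 16 of 25 passed as higher and 2 as lower (median 1.53). Col8a2 had 248, 60.2 and 170 CPM against 1.32, 2.61 and 4.85 CPM (5.71, SE 0.64, and 6.3 without control maxillary library 3). Col11a2, a chain of cartilage collagen XI, had 231, 4.79 and 24.9 CPM against 2.64, 1.70 and 2.54 CPM (5.24, SE 1.39, adjusted p = 0.0164), with library 1 far above the other two, as in the cartilage and bone markers. Without that library its value was 2.71, and the call was lost without control maxillary library 2 or 3 (adjusted p = 0.0672 and 0.0508). Col26a1 was lower in the palatal shelf (379, 317 and 334 CPM against 479, 536 and 598 CPM, -0.65, SE 0.12), as was the weakly expressed Col28a1 (-1.14, SE 0.36, adjusted p = 0.0329), whose call was lost when any 1 of the 6 libraries was left out.

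Genes of epithelial adhesion were near 0 in the maxillary process. Col17a1, the hemidesmosomal collagen of basal epithelium, had 117, 114 and 165 CPM against 1.06, 0.182 and 0.138 CPM. Itgb4, the hemidesmosomal integrin chain, had 50.01, 59.8 and 60.1 CPM against 0.198, 0.182 and 0.969 CPM. Lama3, an epithelial laminin chain, was at 32.9, 37.6 and 45.2 CPM against 0.528, 0.727 and 0.923 CPM. Lamb3 had 23.0, 24.3 and 29.2 CPM in palatal shelves and was under 1 CPM in every control maxillary library. Col17a1, Itgb4 and Lamb3 passed the filter on low counts only through the palatal shelf libraries, so they had to differ. These genes moved with the sum of ectoderm markers given above, and its part was not tested.

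Of the matrix receptors 19 of 28 passed as higher and 3 as lower (median 0.88), with Cd44, the hyaluronan receptor, at 58.0, 29.5 and 56.5 CPM against 2.05, 2.06 and 3.51 CPM (4.21, SE 0.34) and Itga7 at 3.33, 1.29 and 3.27 CPM against 0.198, 0 and 0.185 CPM. The lower ones were Itgb3 (-0.95), Itga4 (-0.83) and the syndecan gene Sdc1 (-0.43). Of other basement membrane genes 15 of 19 passed as higher and 0 as lower (median 1.69). Of other microfibril, elastic fibre and matricellular genes 23 of 37 passed as higher and 1 as lower (median 1.44), led by the asporin gene Aspn with 140, 17.5 and 58.6 CPM against 0, 0.182 and 1.52 CPM. Matn4, the matrilin-4 gene, had 59.5, 8.92 and 12.5 CPM against 0.132, 0.909 and 1.71 CPM, and Ltbp2 18.3, 0.465 and 2.93 CPM against 0.066, 0.121 and 0.415 CPM. Palatal shelf library 1 was far above the other two in all 3 genes, and the call on Ltbp2 was lost without control maxillary library 1 or 2 (adjusted p = 0.0648 and 0.0795). Emilin2 was lower (-0.94, SE 0.09). Of other proteases and inhibitors 17 of 32 passed as higher and 2 as lower (median 0.64). Mmp9, the gelatinase of osteoclasts and other cells, had 133, 6.71 and 33.7 CPM against 0, 0 and 0.231 CPM, Adamts18 39.7, 49.8 and 49.5 CPM against 0.330, 0.182 and 0.0461 CPM, and Adamts16 9.13, 8.70 and 13.3 CPM against 0.0660, 0 and 0.0461 CPM. Mmp9, Adamts18 and Adamts16, as well as Itga7, Aspn, Matn4 and Ltbp2, passed the filter on low counts only through the palatal shelf libraries. The filter thus favoured a difference in these genes, and their calls are not independent of it. The lower ones were Adamts19 (-0.91, SE 0.27), whose call was lost in 4 of the 6 fits with 1 library left out, and Adamts15 (-0.76, SE 0.15).

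The second comparison asked how the maxillary process differs when the floxed Srsf3 alleles meet Wnt1-Cre. No member passed: 0 of the 40 tested had an adjusted p below 0.05 with edgeR, against 0.0842% of 14254 genes. At an unadjusted p below 0.05 there were 13 members (32.5%), 6 higher and 7 lower in the labelled Srsf3 cKO libraries, against 12.2% of all genes (6.34% higher and 5.91% lower). DESeq2 called 4 members (Fbln2, Fbn2, Thbs1 and Col4a2), against 384 of 23499 genes, and limma on log2 TPM called 0. The groups did not overlap in 11 members (27.5%), 7 higher and 4 lower, against 18.1% of all genes (8.76% and 9.37%). Col14a1 and Fmod did not pass the filter on low counts. The members' median log2 fold change was 0.11, with 24 above 0 and 16 below, and it was -0.16 without cKO library 1.

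Among members with a mean of at least 5 CPM, the 3 with the highest fold changes were Col12a1, Thbs1 and Lox. Col12a1 had 4.06, 6.55 and 51.2 CPM in control and 86.0, 46.1 and 64.5 CPM in labelled Srsf3 cKO libraries (1.65, SE 0.84, adjusted p = 0.484). Control library 3 lay within the cKO range and far above controls 1 and 2, and without it the value was 3.62. Thbs1 had 50.1, 56.2 and 108 CPM against 171, 130 and 129 CPM, with no overlap (1.00, SE 0.29, adjusted p = 0.289). Lox had 17.1, 21.03 and 18.6 CPM against 69.7, 7.52 and 32.3 CPM (0.94, SE 0.64, adjusted p = 0.603). Its cKO libraries lay on both sides of the control libraries, and without cKO library 1 the value was 0.06.

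Under the same limit the 3 members with the lowest fold changes were the collagen VI chains Col6a2 and Col6a1, and Tnc. Col6a1 had 68.6, 133 and 269 CPM in control and 54.2, 41.3 and 68.7 CPM in labelled Srsf3 cKO libraries (-1.52, SE 0.45, adjusted p = 0.296). Col6a2, its neighbour on chromosome 10, had 85.2, 183 and 373 CPM against 63.0, 49.2 and 98.7 CPM (-1.61, SE 0.51, adjusted p = 0.317). In both the control libraries spread widely, and the lowest control met the highest cKO library. Without control library 3 the values were -0.87 and -0.93. Tnc had 10.4, 38.9 and 140 CPM against 37.1, 11.6 and 42.4 CPM (-1.07, SE 0.85, adjusted p = 0.668), and the value turned to 0.30 without control library 3. That library also had the highest sum of neuron and glia markers, 169 TPM against 52.6 and 77.0 TPM in controls 1 and 2.

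The smallest unadjusted p among the members was that of Fbln2, the fibulin-2 gene (chr6:91212455-91272540 in GRCm38). It had 184, 227 and 264 CPM in control and 136, 117 and 136 CPM in labelled Srsf3 cKO libraries. All 3 cKO libraries were below all controls (-0.79, SE 0.14, unadjusted p = 0.000626, adjusted p = 0.118), and the value stayed between -0.91 and -0.66 when any library was left out. Fbn2, the fibrillin-2 gene, had 360, 300 and 586 CPM against 915, 704 and 773 CPM, again without overlap (0.94, SE 0.24, adjusted p = 0.27). Fbln5 was below all controls in every cKO library (-0.67, SE 0.20, adjusted p = 0.301), as were Timp2 (-0.35, SE 0.12, adjusted p = 0.327) and Mmp2 (-0.25, SE 0.08, adjusted p = 0.327).

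Basement membrane members all had values above 0, from 0.29 to 0.69, but 0 of 7 passed and 4 of 7 had an unadjusted p below 0.05. Col4a1 had 552, 619 and 661 CPM in control and 940, 748 and 766 CPM in labelled Srsf3 cKO libraries (0.42, SE 0.12, adjusted p = 0.292). Col4a2, with which it shares a promoter region, had 310, 333 and 367 CPM against 590, 430 and 431 CPM (0.52, SE 0.15, adjusted p = 0.28). Nid1 had 146, 148 and 165 CPM against 392, 180 and 171 CPM (0.69, SE 0.31, adjusted p = 0.421). In all 3 genes no cKO library overlapped a control, and cKO library 1 was the highest. Without cKO library 1 the values were 0.31 for Col4a1, 0.36 for Col4a2 and 0.20 for Nid1. The remaining members of the group were Lamc1 (0.55, and 0.31 without cKO library 1), Nid2 (0.44 and 0.24), Lama4 (0.38 and 0.07) and Lamb1 (0.29 and 0.14). Most endothelial and mural markers moved the same way: 8 of 9 tested had an unadjusted p below 0.05, all higher. The other 1, the mural marker Rgs5, was lower. It had 0.840, 0.661 and 0.118 TPM in control and 0.290, 0.102 and 0.201 TPM in cKO libraries. None of the 10 on the list was at 0 in any group. Their sum was highest in cKO library 1 (487 TPM) and above all controls in cKO libraries 2 and 3. Ectoderm markers were higher too (8 of 9 tested, 5 with an unadjusted p below 0.05). They summed to 9.71 to 17.9 TPM against 3.71 to 8.59 TPM. Macrophage (9 of 9), red blood cell (8 of 8) and skeletal muscle markers (4 of 4) also had values above 0. Facial mesenchyme (9 of 10) and neuron and glia markers (6 of 7) were lower, and the other lists were mixed. The part of any of these markers in the basement membrane values was not tested.

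Of the fibrillar chains 0 of 6 passed, and the median was -0.51. Col1a2 had 1161, 1646 and 2186 CPM against 865, 933 and 1284 CPM (-0.70, SE 0.24, adjusted p = 0.357), the highest cKO library lying a little above the lowest control. Col1a1 had 251, 447 and 1022 CPM against 253, 202 and 418 CPM (-0.98, SE 0.50, adjusted p = 0.483), and its value was -0.26 without control library 3. Facial mesenchyme markers were also lower in these libraries: their sum was 1023 to 1810 TPM against 2101 to 2459 TPM, without overlap. Of the 10, 9 had values below 0, 3 of them with an unadjusted p below 0.05. The other 1, Meox2, was higher, also with an unadjusted p below 0.05. It had 0.368, 0.0855 and 0.712 TPM in control and 1.57, 1.24 and 1.70 TPM in labelled Srsf3 cKO libraries. The part of these markers in the fibrillar and collagen VI values was not tested. Dcn was barely detected in control library 1 and had 0.0624, 0.927 and 5.54 CPM against 7.49, 6.61 and 6.13 CPM (1.59, SE 0.95, adjusted p = 0.55), with no overlap and with an even level in the cKO libraries. It passed the filter on low counts only through those libraries, and its value was 3.73 without control library 3 and 1.05 without control library 1.

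Of the related lists 0 of 155 genes tested passed with edgeR, 26 were higher and 18 lower at an unadjusted p below 0.05, against 6.34% and 5.91% of all genes. DESeq2 called 22 (14 higher, 8 lower), against 384 of 23499 genes, and limma 0. With edgeR 11 were called without the filter on low counts (6 higher, 5 lower), against 143 of 23499 genes. In 1 fit over 12 libraries 6 were called (4 higher, 2 lower), against 126 of 14254 genes. Without cKO library 1 there was 1, lower, against 29 of 14519 genes. The genes of smallest p in each list were Bmp1, the procollagen carboxy-terminal proteinase, with 131, 136 and 146 CPM against 83.2, 91.1 and 102 CPM (-0.58, SE 0.10, adjusted p = 0.109), and Col13a1, a transmembrane collagen, with 18.5, 13.3 and 14.8 CPM against 46.0, 32.6 and 40.0 CPM (1.35, SE 0.18, adjusted p = 0.0662). Neither gene overlapped between the groups. The laminin α1 gene Lama1 had 35.1, 24.9 and 32.2 CPM against 90.3, 62.6 and 55.7 CPM (1.18, SE 0.21, adjusted p = 0.118). The microfibril gene Mfap4 had 216, 239 and 230 CPM against 157, 124 and 143 CPM (-0.69, SE 0.11, adjusted p = 0.0928). Itgb5, an integrin chain of the vitronectin receptor, differed by -0.51 (SE 0.08, adjusted p = 0.0928), and Mmp11 by -1.02 (SE 0.28, adjusted p = 0.28). In each of these 6 genes no library of one group reached the other. All 6 passed with DESeq2, and all but Mmp11 with edgeR without the filter on low counts (adjusted p from 0.00256 to 0.0337).

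The third comparison set PI3K against wild-type palatal shelves. With edgeR 0 of the 42 members passed, against 0% of 16525 genes, and 2 members (4.76%) had an unadjusted p below 0.05, against 2.14% of all genes. DESeq2 and limma on log2 TPM called 0 members. The groups did not overlap in 4 members (9.52%), against 6.23% of all genes. The median log2 fold change of the members was -0.06, with 17 above 0 and 25 below, against -0.01 for all genes.

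Lum, the lumican gene, had 251, 280 and 286 CPM in wild-type and 234, 182 and 148 CPM in PI3K palatal shelves. All PI3K libraries were below all wild-type libraries, library 1 only narrowly (-0.54, SE 0.16, unadjusted p = 0.0127, adjusted p = 1.00). Dcn had 78.6, 42.3 and 77.2 CPM against 77.8, 34.6 and 16.8 CPM (-0.62, SE 0.52, adjusted p = 1.00), and these groups overlapped. Without PI3K library 1 its value was -1.34, and without PI3K library 3 it was -0.23. The other small leucine-rich proteoglycan genes also had values below 0, so that 4 of 4 were lower with a median of -0.39, and 0 of 4 passed. Timp3, which encodes an inhibitor of metalloproteinases held in the matrix, had 152, 102 and 146 CPM against 170, 270 and 158 CPM. All PI3K libraries were above all wild-type libraries, library 2 by the most (0.58, SE 0.24, unadjusted p = 0.0422, adjusted p = 1.00), and without that library the value was 0.30.

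The other members without overlap were Fbn1, with 399, 375 and 390 CPM in wild-type and 404, 427 and 426 CPM in PI3K palatal shelves, and Lamb1, with 323, 327 and 330 CPM against 340, 429 and 343 CPM. In both the PI3K libraries were above the wild-type ones by small amounts. Thbs1 had 184, 108 and 157 CPM against 168, 205 and 184 CPM (0.32, SE 0.19). Col12a1 had 865, 73.6 and 372 CPM against 797, 473 and 426 CPM (0.37, SE 0.73), and Eln had 530, 229 and 403 CPM against 500, 289 and 165 CPM (-0.29, SE 0.43). In these 3 genes the groups overlapped (adjusted p = 1.00 for each), and leaving out 1 library turned the sign of Col12a1 (-0.12 without wild-type library 2) and of Eln (0.02 when wild-type library 1 was left out, 0.03 when PI3K library 3 was).

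Of the related lists 0 of 173 genes passed with edgeR, DESeq2 or limma, and 8 had an unadjusted p below 0.05, all 8 higher, against 2.14% of all genes in either direction. Skeletal muscle markers were higher too: their sum was 51.4 to 377 TPM in PI3K and 10.2 to 88.7 TPM in wild-type palatal shelves, and 10 of 10 had values above 0 (median 2.58), 3 of them with an unadjusted p below 0.05. Other lists also leaned 1 way. Values were above 0 in 9 of 10 endothelial and mural markers and in 8 of 9 neuron and glia markers. Below 0 were 8 of 8 red blood cell, 8 of 10 macrophage, 10 of 13 ectoderm and 7 of 11 cartilage and bone markers. Facial mesenchyme (4 of 10 above 0) and tendon and fibroblast markers (5 of 9) were mixed. The part of any of these markers in the matrix genes was not tested. The genes of smallest p were Adamts15, with 38.0, 31.6 and 24.9 CPM in wild-type and 44.8, 79.9 and 63.8 CPM in PI3K palatal shelves (1.00, SE 0.24), and Efemp1, the fibulin-3 gene, with 27.2, 17.1 and 18.04 CPM against 37.8, 32.01 and 42.2 CPM (0.85, SE 0.20). In both no PI3K library reached down to the wild-type range. Col20a1 differed by 0.73 (SE 0.19) and Lama2 by 0.26 (SE 0.08), also without overlap, and Itga1 by -0.47 (SE 0.24) and Pcolce2 by -0.97 (SE 0.79), with overlap (adjusted p = 1.00 for all 6). The sign of Pcolce2 turned without wild-type library 1 (0.37).

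Chains of a collagen type are assembled together, so the ratio of their TPM was calculated in each library. Col1a1 to Col1a2 was 1.278, 0.764 and 0.961 in wild-type palatal shelves and 1.16, 0.873 and 0.684 in PI3K palatal shelves, against 0.187, 0.242 and 0.410 in control and 0.250, 0.189 and 0.287 in labelled Srsf3 cKO maxillary processes. The tissues did not overlap, and the means of the control groups were 1.00 ± 0.259 and 0.280 ± 0.116 (SD, n = 3). Col4a1 to Col4a2 went the opposite way, at 1.59, 1.75 and 1.75 in wild-type palatal shelves and 2.54, 2.47 and 2.62 in control maxillary processes. Labelled Srsf3 cKO library 1, at 1.83, lay nearer to the palatal shelf values than did cKO libraries 2 and 3, at 2.39 and 2.64. Col5a1 to Col5a2 was 0.822, 0.829 and 0.893 in wild-type palatal shelves, 0.959, 0.908 and 1.00 in PI3K palatal shelves and 0.586, 0.571 and 0.673 in control maxillary processes. The wild-type and PI3K palatal shelves did not overlap in this last ratio.

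With 6 ratios in 3 comparisons, 18 tests were made. Between wild-type palatal shelf and control maxillary process the ratios of collagen I, IV and V and that of Lamb1 to Lamc1 did not overlap and had p = 0.1 in a two-sided exact permutation test, the smallest that 3 against 3 libraries allow (adjusted p = 0.36 over the 18 tests). Col6a1 to Col6a2, at 0.826 ± 0.0388 and 0.728 ± 0.0479, had p = 0.2 and Col6a3 to Col6a1 p = 0.9 in the same exact test. Between the genotypes of a tissue Col5a1 to Col5a2 in the palatal shelf had p = 0.1 in the exact permutation test (adjusted p = 0.36), and the others had p from 0.2 to 0.9. TPM takes effective length into account, and that of Col4a1 differed between the tissues, as described next. Its part in the collagen IV ratio was not tested.

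**Figure D4:**
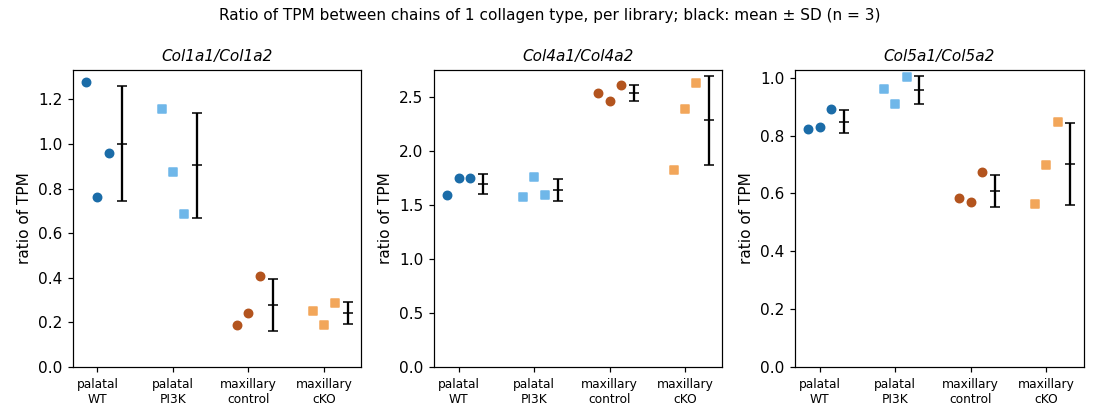
Ratio of TPM between chains of collagen I, IV and V in each library (points) with the mean and SD of each group of 3 (black). For collagen I the ratio is 0.684 to 1.278 in palatal shelf and 0.187 to 0.410 in maxillary libraries, and for collagen IV the control maxillary libraries lie above the palatal shelf ones.

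The series concerns splicing, and several matrix genes have spliced forms that differ in length. Effective length, the estimated count divided by TPM on the log2 scale and centred on the median gene of each library, changes if longer or shorter transcripts of a gene take a larger share. It was tested with limma. In the PI3K comparison 0 of 42 members passed, against 0.00775% of 12907 genes, and 1 member had an unadjusted p below 0.05, against 3.9% of all genes. This was Col6a3, at 1.52, 1.54 and 1.46 in wild-type and 1.55, 1.61 and 1.63 in PI3K palatal shelves (difference 0.09, SE 0.03, adjusted p = 0.998). In the labelled Srsf3 cKO comparison 0 of 37 members passed and 0 had an unadjusted p below 0.05, against 0.00909% and 5.16% of 11002 genes. The smallest p was that of Fn1, which has well-known alternative exons, at 1.56, 1.60 and 1.63 in control and 1.62, 1.65 and 1.65 in cKO libraries (0.04, SE 0.02, adjusted p = 0.86). The groups overlapped slightly, and Loxl2 followed with a difference of 0.10 (SE 0.05, adjusted p = 0.86). Bgn was the second member in the PI3K comparison (0.02, SE 0.01, adjusted p = 0.998).

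Between wild-type palatal shelf and control maxillary process 4 of 37 members (10.8%) differed in effective length, against 9.09% of 11093 genes (6.76% longer in the palatal shelf). Col4a1 was at 1.293, 1.284 and 1.301 in palatal shelves and 0.870, 0.970 and 0.844 in control maxillary processes, without overlap (0.40, SE 0.04, adjusted p = 0.0216). Sparc was at -0.24, -0.25 and -0.25 against -0.37, -0.41 and -0.38 (0.14, SE 0.01, adjusted p = 0.0221). Fbn1 (0.06, SE 0.01, adjusted p = 0.041) and Timp1 (0.05, SE 0.01, adjusted p = 0.0428) differed by little. All 4 were longer in the palatal shelf, and each call was lost in most fits with 1 library left out: 0 to 2 members then passed. Most genes leaned this way: 7589 of 11093 had values above 0 after centring (median 0.02). Without centring 11048 genes passed, all with higher values in the palatal shelf. An uncentred value also scales with library depth, so it cannot be read as length. Wild-type palatal shelf libraries held 30654736 to 35330324 counts and control maxillary libraries 15932541 to 21722187. Col14a1, Col5a3, Dcn, Fmod and Thbs2 had too few counts in the maxillary process for this test. Strand use is not stated in the sources used here, and 24 of the 42 members overlap another annotated gene, 19 of them on the opposite strand, among these Col4a1 and Col4a2, whose starts overlap by 22 bases. These overlaps are of whole gene spans, introns included, and shared exons were not counted. Only reads from exon sequence that lies in both genes cannot be assigned with certainty.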

How the data were processed

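The authors deposited estimated counts and TPM per gene, made with Salmon 1.1.0 per the names of the tables and the submitters' processing notes, which also list STAR 2.7.0, DESeq2 1.28.1 and mm10, with no order. Both tissues came in tables of their own, joined here by gene ID. Symbols and coordinates came from GENCODE (GRCm38), in which 53355 of 53392 identifiers matched. The main test was that of edgeR 4.0.16 (R 4.3.3) on rounded estimated counts (quasi-likelihood F-test, TMM, default low-count filter, Benjamini-Hochberg over all genes, threshold 0.05), each comparison on its own 6 libraries. Standard errors were derived from the F statistic, and CPM were scaled by TMM. Effective length was compared by limma 3.58.1 where no library of the fit fell below a count of 50. Alternatives were DESeq2 1.42.0, log2 TPM in limma with a pseudocount of 1 or 0.1, other normalisations and filters, a replicate block, 1 fit over 12 libraries and leaving out each library. The tests were run on simulated data with 200 changed genes in each fit. The tissue comparison called 7965 of 15752 genes, so rates simulated with 200 do not describe it directly. In the PI3K, labelled Srsf3 cKO and tissue fits edgeR called 44%, 68% and 44% of 2-fold changes. It called 82%, 81% and 84% of 4-fold changes, and 6 of 132, 9 of 158 and 13 of 141 calls were false. For effective length 17 of 187, 7 of 153 and 14 of 176 calls were false. In some of these fits the false share was above the threshold of 0.05. A gene that did not pass may thus still differ. Libraries held 15932541 to 37406960 counts.

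Members and lists were chosen with earlier results of these data known. Values per library are given for the 5 members of highest mean TPM, and for members past the threshold with the largest fold change (up to 8 in each direction, mean of at least 5 CPM), or the 3 highest and 3 lowest where fewer than 3 passed. Related lists contributed up to 3 genes in each direction past the threshold, or that of smallest p. Other genes were named after their values were seen. The result for 1 gene that this rule names is not reported here.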

Additional observations from a re-analysis of the deposited data

How the results depend on the processing

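The 38 member calls between wild-type palatal shelf and control maxillary process ranged from 36 to 38 over other scalings, filters and tools, and from 33 to 39 with 1 library left out. With limma on log2(TPM + 1) the median of all genes shifted to 0.16, and 69.0% of calls were higher, against 53.7% with edgeR. The sign of Nid2 turned to 0.055 (upper quartile), 0.016 (no filter), 0.0202 (more than 1 CPM in 3 libraries), 0.11 and 0.11 (limma on log2(TPM + 1) and log2(TPM + 0.1)) and 0.0041 (1 fit over 12 libraries), and it ranged from -0.17 to 0.12 with 1 library left out. Leaving out 1 library also turned the sign of Tnc in the labelled Srsf3 cKO comparison (range -1.57 to 0.30) and, in the PI3K comparison, of Col12a1 (-0.12 to 1.35), Eln (-0.76 to 0.033) and Pcolce2 (-1.67 to 0.37). Genes called in the labelled Srsf3 cKO comparison numbered 12 with edgeR, 143 without a filter, 384 with DESeq2, 126 in 1 fit over 12 libraries, 36 at a threshold of 0.1 and 2 to 29 with 1 library left out. In that comparison 14254 genes were tested with edgeR and in the fit over 12 libraries, and 23499 without a filter and with DESeq2. Members called there were 1 without a filter, 4 with DESeq2 and 1 in the fit over 12 libraries. DESeq2 called 4 genes in the PI3K comparison.

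Genes with changed effective length in the PI3K comparison were 1, and 31 without centring and 0 to 1 with 1 library left out. In the labelled Srsf3 cKO comparison they were 1, and 2 at a minimum count of 20, 4 without centring and 0 to 5 with 1 library left out. Between the tissues they were 1008, and 563 at a minimum of 20, 11048 without centring, 2174 at a threshold of 0.1 and 0 to 587 with 1 library left out. Members were 4, and 2, 37, 7 and 0 to 2 in the same order. Values without centring also scale with library depth, so those counts are not of length alone.

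Same-numbered libraries did not deviate together in every pair (correlations 0.589, 0.197 and -0.228 in the PI3K, 0.0596, 0.109 and 0.264 in the labelled Srsf3 cKO and -0.18, 0.0583 and -0.00671 in the tissue comparison). With the replicate number as a block 40 genes and 0 members passed in the labelled Srsf3 cKO comparison, as did 2 genes of the related lists, Col13a1 among them (1.35, adjusted p = 0.023, against 0.0662 without the block), and effective length calls fell to 0 in each comparison, for genes and for members. The alternatives for genes of the related lists were chosen after seeing the data.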
